A study of Mus musculus with 10 samples.

Results

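The 10 genes described here are immediate early genes, which respond within minutes to a stimulus, and were read in brain endothelial cells (BECs) isolated from the mouse cortex: the AP-1 subunits Fos, Fosb, Jun, Junb and Jund, the transcription factors Egr1, Atf3 and Nr4a1, the nuclear protein Ier2 and the phosphatase Dusp1. They were chosen by name as a standard panel of immediate early genes, and 9 of the 10 were found by GENCODE M21 symbol among the 14106 genes with values. The expression of Jund was not analysed here. The 10 RNA sequencing libraries came from 1 year old female mice. Of these, 5 were from APP/PS1 mice, whose transgenes encode an amyloid precursor protein of joined mouse and human sequence bearing the Swedish mutation and a presenilin 1 that lacks an exon (APP/PS1Swe/PSEN1DE9), and 5 were from age-matched female control mice of the same background, labelled WT. All 10 libraries shared the isolation: PBS perfusion, mincing of the cortex, and enzymatic digestion with collagenase/dispase and DNase at 37 °C. Removal of myelin and enrichment with CD31 microbeads followed. The study describes the isolate as CD31+ CD45-, with CD45 stained on part of the cells to assess purity by flow cytometry. It was not stated whether a library held 1 mouse or a pool, so that p-values measure the spread between these libraries.

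Immediate early genes are transcribed from factors already present in the resting cell, chiefly SRF with its ternary complex partners and CREB, once MAP kinase or calcium signals reach the nucleus, and they need no new protein synthesis. Their mRNAs are short-lived, and products such as DUSP1 and ATF3 switch the response off again. Enzymatic dissociation of tissue is a known trigger of these genes in many cell types, including endothelium. No library of undissociated tissue was analysed here, so the part of the isolation in the levels below was not tested.

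The letters bound by these factors were looked for in the 250 bases before the RefSeq start (GRCm38.p6) of the members, on both strands, with positions counted back from -1 at the base before the start. Of the 10 members, 8 matched a promoter entry, and 7 of these had expression values. Promoters of Egr1 and Ier2 were not analysed here. The 4 below are shown because they hold every kind of match found in the members, and capitals mark the matches. The windows lie at chr12:85473640-85473889 (plus strand, Fos), chr7:19310046-19310295 (minus strand, Fosb), chr17:26508473-26508722 (minus strand, Dusp1) and chr15:101266596-101266845 (plus strand, Nr4a1), each printed 5′ to 3′ in the direction of its gene.
Fos: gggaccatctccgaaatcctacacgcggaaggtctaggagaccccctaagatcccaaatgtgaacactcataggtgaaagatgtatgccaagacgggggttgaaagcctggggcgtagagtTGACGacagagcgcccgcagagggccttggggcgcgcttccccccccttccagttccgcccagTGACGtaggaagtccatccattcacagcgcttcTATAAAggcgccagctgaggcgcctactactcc
Fosb: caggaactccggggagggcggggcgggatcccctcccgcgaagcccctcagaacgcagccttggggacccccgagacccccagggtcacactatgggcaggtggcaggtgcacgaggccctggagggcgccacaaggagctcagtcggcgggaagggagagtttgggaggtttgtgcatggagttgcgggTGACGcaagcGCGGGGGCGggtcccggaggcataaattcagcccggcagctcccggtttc
Dusp1: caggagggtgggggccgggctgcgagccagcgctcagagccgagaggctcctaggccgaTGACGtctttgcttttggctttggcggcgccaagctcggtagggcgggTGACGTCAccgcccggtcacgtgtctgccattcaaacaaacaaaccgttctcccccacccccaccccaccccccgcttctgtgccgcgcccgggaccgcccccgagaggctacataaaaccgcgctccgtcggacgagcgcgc
Nr4a1: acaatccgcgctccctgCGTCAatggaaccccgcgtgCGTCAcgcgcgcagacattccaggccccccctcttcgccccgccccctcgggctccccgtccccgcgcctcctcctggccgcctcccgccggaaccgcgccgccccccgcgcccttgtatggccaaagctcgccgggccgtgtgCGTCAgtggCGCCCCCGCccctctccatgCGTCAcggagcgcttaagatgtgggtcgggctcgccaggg

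The core of the cAMP response element, TGACG, was present in 6 of the 8 member promoters and in 17.8% of the 32851 mouse promoters searched at the same length. It stood at -129 to -125 and -66 to -62 in Fos and at -60 to -56 in Fosb. Nr4a1 had 4 copies, all on the opposite strand, where they read CGTCA in the printed line. Junb and Atf3 had 1 copy each, and Jun and Jund had none. The full palindrome TGACGTCA, which contains the core on both strands, occurred in the Dusp1 promoter alone among the members, at -143 to -136, and in 1.55% of all promoters. The EGR letters GCGNGGGCG stood at -50 to -42 in Fosb and on the opposite strand at -60 to -52 in Nr4a1, against 4.7% of all promoters. TATAAA lay at -33 to -28 of Fos alone, against 12.4% of all promoters. No member window held a CArG box, the site of SRF (1.47% of all promoters), or the AP-1 letters TGANTCA (6.75%). Sites farther upstream were not searched, nor were the promoters of Egr1 and Ier2. The lack of a match thus holds for these windows only. These are matches of letters, and binding was not measured.

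The members were among the most abundant transcripts of the isolate. Values were log2 CPM, the log2 of read counts scaled to the size of the library, adjusted for batch by the authors. Converted back, the libraries held 22371766 to 126686149 adjusted counts, and the lowest adjusted count of any member in any library was 12164, for Ier2, so counting error was small for every member. The 9 genes made up between 1.68% (control library 4) and 2.2% (APP/PS1 library 4) of the adjusted counts of a library. Fos averaged 12.09 log2 CPM over the 10 libraries, about 4369 CPM, and ranked 8 of 14106 genes. Fosb followed at 11.90 log2 CPM (rank 11), Jun at 11.36 (rank 26), Egr1 at 10.94 (rank 40) and Dusp1 at 10.88 (rank 42). Atf3 at 10.49, Nr4a1 at 10.48 and Junb at 10.12 log2 CPM all ranked within the top 96, and Ier2 at 9.10 was the lowest member, at rank 242.

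Levels of different genes were compared per kilobase of exon. On this scale the order was Fos (10.85 log2 CPM per kb, rank 4), Jun (9.68), Atf3 (9.38), Fosb (9.26), Dusp1 (9.16), Junb (8.92), Egr1 (8.78), Nr4a1 (8.67) and Ier2 (8.50, rank 70). Fos exceeded Jun by 1.17 ± 0.122 log2 units (SD over libraries, n = 10), in all 10 libraries. Jun stood above Atf3 by 0.30 ± 0.129, Dusp1 above Junb by 0.24 ± 0.0999 and Nr4a1 above Ier2 by 0.18 ± 0.0362 log2 units, each also in 10 of 10 libraries. The neighbours Atf3 and Fosb differed by 0.12 ± 0.155 and Fosb and Dusp1 by 0.10 ± 0.231, which is within their spread. Junb over Egr1 (0.14 ± 0.122) and Egr1 over Nr4a1 (0.11 ± 0.0706) held in 9 of 10 libraries. The 10 libraries are not 10 independent values, as the batch adjustment set the means of same-numbered libraries nearly equal for each gene. These SDs therefore leave out spread between batches. Exon lengths were those of the union of annotated exons, so the place of a gene with long rarely used exons is less certain.

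**Figure D1:**
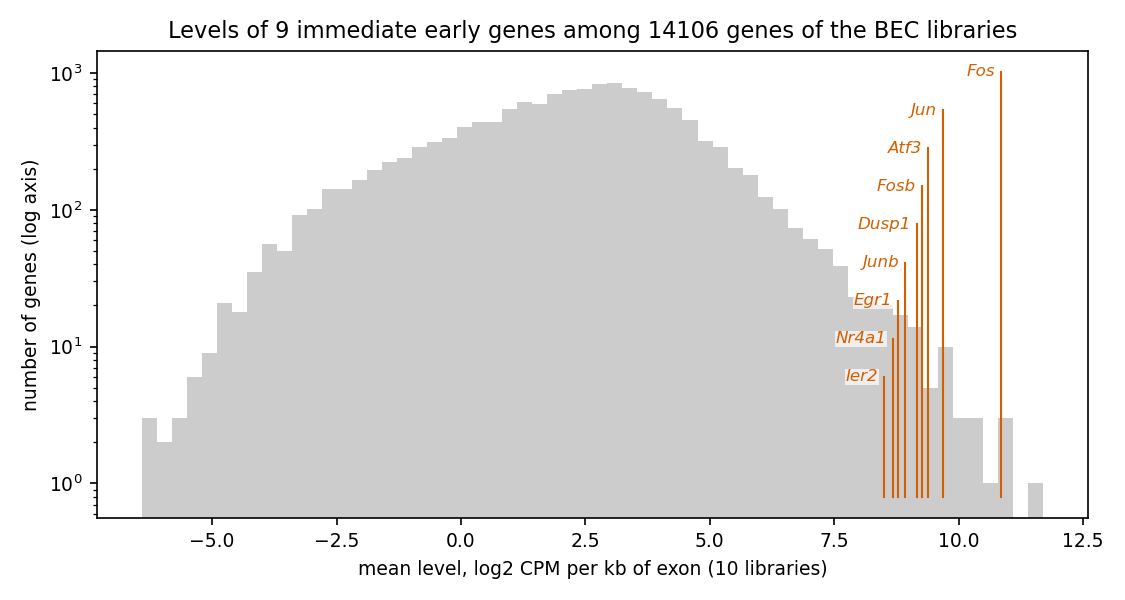
Histogram of the mean log2 CPM per kilobase of exon over 10 libraries for all 14106 genes (number of genes on a log axis), with the 9 immediate early genes marked. All 9 lie in the right tail, from 8.50 for Ier2 to 10.85 for Fos.

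The cells carried the endothelial transcripts that the selection should enrich. The 15 endothelial markers averaged 10.27 log2 CPM. The lists of other cell types averaged 4.54 (mural), 3.15 (erythroid), 2.04 (neuronal), 1.80 (astrocyte), 1.69 (oligodendrocyte) and 0.85 (microglial), and the pericyte marker Rgs5 alone reached 8.50 log2 CPM. The summed endothelial markers ranged from 27881.5 to 30423.3 CPM in control and from 26954.7 to 29493.5 CPM in APP/PS1 libraries. The 9 members thus came to 16209.3 to 19722.8 CPM in control libraries and 18581.2 to 22772.1 CPM in APP/PS1 libraries, of the same order as the endothelial set. As the samples are bulk, fewer cells of a type and less RNA per cell cannot be told apart.

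The comparison of interest was whether the members differed between APP/PS1 and control BECs. Libraries with the same number formed 5 pairs. The batch adjustment had set the mean of each pair to nearly the same value for each gene (SD of the 5 pair means 0.00161 to 0.00793 log2 units for the members), so a high APP/PS1 library always faces a low control library of the same number, groups that do not overlap are the same as a difference of 1 sign in all 5 pairs, and levels cannot be compared between batches. For the same reason, the SD within a group follows the pair differences and leaves out spread between batches. Differences below are APP/PS1 minus control in log2 CPM, from limma with the pair as a block, and p-values were adjusted by Benjamini-Hochberg over all 14106 genes.

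All 9 members had a higher mean in APP/PS1 than in control BECs, by 0.05 (Jun) to 0.32 (Fosb) log2 units, with a median of 0.151. Of all genes, 48.2% were higher in mean, and the median over all genes was -0.00377. The members are all among the 709 genes that averaged 8 log2 CPM or more. Those 709 genes had medians of 0.0788, -0.102, 0.0953, 0.111 and 0.0847 in pairs 1 to 5. Their share higher in mean was not computed. Of the 15 endothelial markers, which averaged 10.27 log2 CPM, 11 were higher in mean (median 0.036). None of the 9 members passed an adjusted p of 0.05, nor did any of the 14106 genes (0.0%). At an unadjusted p of 0.05, 1 member (Junb) was called higher, where 2.13% of all genes were. Of the 9, 2 (Junb and Ier2) were higher in all 5 pairs, where 2.99% of all genes were. The members moved together from pair to pair, so they are not 9 separate observations. The median of 0.151 fell to 0.048 without the libraries of pair 4.

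Junb, an AP-1 subunit of the JUN family that is encoded at chr8:84974484-84978718 (minus strand, GRCm38), had a higher level in APP/PS1 in every pair. Its log2 CPM was 10.09, 10.06, 9.89, 9.86 and 10.001 in control libraries 1 to 5 and 10.14, 10.17, 10.35, 10.38 and 10.24 in APP/PS1 libraries 1 to 5. Every APP/PS1 library lay above every control library. The means were 9.98 ± 0.102 and 10.26 ± 0.105 (SD, n = 5 each). They differed by 0.27 log2 units (SE 0.0858, 95% interval 0.06 to 0.49, limma adjusted p = 0.569). The exact sign-flip permutation test over the 5 pairs gave p = 0.062, two-sided, which is the smallest value that 5 pairs allow. Without the pair as a block the adjusted p was 0.0416 (limma), a fit in which 1.37% of all genes were called higher. That fit takes the libraries as independent, although the batch adjustment had tied those of the same number together. It thus understates the error, and its call of Junb is not counted as a difference here. Over the alternatives the adjusted p of Junb ranged from 0.0416 to 0.944, the lowest being from that fit. Of the 2301 exon bases of Junb, 173 overlap Prdx2 on the opposite strand, and strand-specific counting was not stated.

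Ier2 (chr8:84661331-84662852, minus strand), a small nuclear protein of the early response, had the second pattern without overlap. The log2 CPM was 9.10, 9.06, 8.99, 8.85 and 9.03 in the controls and 9.10, 9.14, 9.22, 9.35 and 9.18 in APP/PS1. The gap rested on pair 1, whose libraries differed by only 0.00255 log2 units. The means of 9.01 ± 0.0954 and 9.20 ± 0.0957 differed by 0.19 log2 units (SE 0.0809, 95% interval -0.01 to 0.39, limma adjusted p = 0.652), and by 0.11 without pair 4.

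The FOS proteins need a JUN partner to bind DNA. Fos (chr12:85473890-85477273, plus strand) had log2 CPM values of 12.09, 12.08, 12.07, 11.80 and 12.01 in control and of 12.08, 12.09, 12.11, 12.36 and 12.17 in APP/PS1 BECs. Pairs 1 to 3 differed by -0.01, 0.01 and 0.04 log2 units, and pair 4, at 0.56, stood apart from them. The mean difference was 0.15 log2 units (SE 0.0966, 95% interval -0.09 to 0.39, limma adjusted p = 0.801), and it was 0.0484 without pair 4.

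Fosb (chr7:19302696-19310051, minus strand) had the widest range of the members. Its log2 CPM was 11.92, 11.96, 11.86, 11.54 and 11.41 in control libraries and 11.87, 11.84, 11.95, 12.27 and 12.36 in APP/PS1 libraries. The differences of 0.73 in pair 4 and 0.95 in pair 5 were the largest of any member in any pair, while pairs 1 and 2 were lower in APP/PS1 by 0.06 and 0.12 and the groups overlapped. The means were 11.74 ± 0.248 and 12.06 ± 0.24, a difference of 0.32 log2 units (SE 0.185, 95% interval -0.14 to 0.78, limma adjusted p = 0.772). That difference was 0.16 without pair 5 and 0.22 without pair 4.

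Jun (chr4:95049034-95052222, minus strand), the founding partner of FOS, differed least. Control libraries read 11.46, 11.37, 11.30, 11.31 and 11.22 log2 CPM, and APP/PS1 libraries read 11.24, 11.34, 11.42, 11.42 and 11.49. The pair differences ran from -0.22 to 0.27, and the mean difference was 0.05 log2 units (SE 0.0787, 95% interval -0.14 to 0.25, limma adjusted p = 0.907). It was 0.12 without pair 1 and -0.00488 without pair 5. Jun shares 232 of its 3189 exon bases with the antisense gene Junos, whose reads cannot be told apart without strand.

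**Figure D2:**
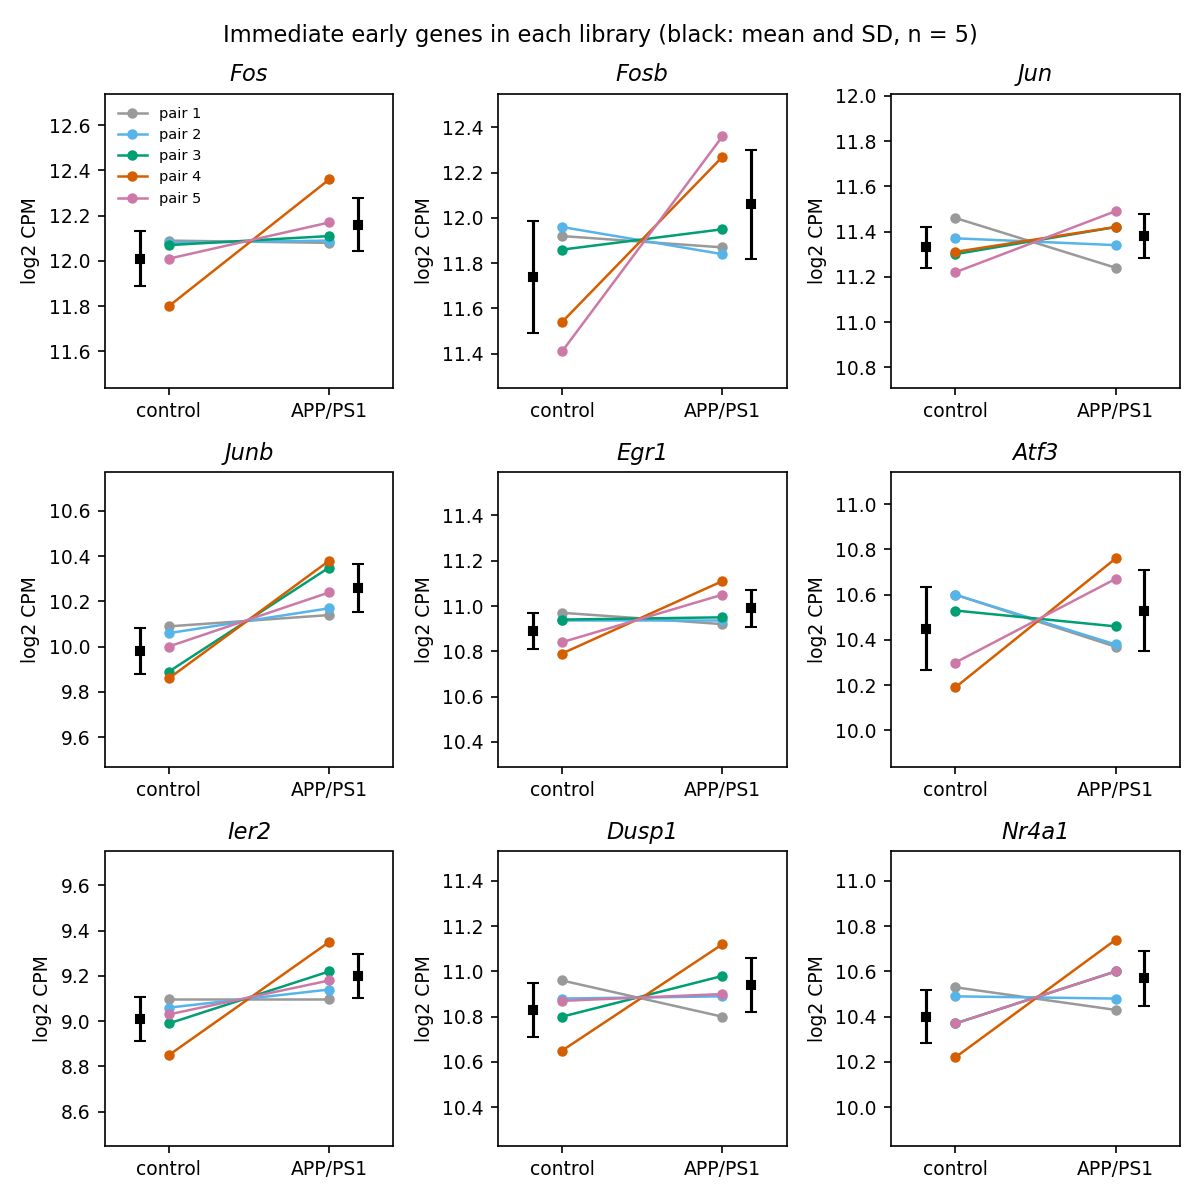
Log2 CPM of each of the 9 members in the 5 control and 5 APP/PS1 libraries, 1 panel per gene, with a line joining the libraries of the same number and black squares and bars for the mean and SD (n = 5 per group). The lines of pairs 4 and 5 climb in every panel, and for Junb and Ier2 the 2 groups do not overlap.

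EGR1, a zinc finger transcription factor, and NR4A1, an orphan nuclear receptor, are rapid targets of SRF and CREB signalling. Egr1 lay at 10.97, 10.94, 10.94, 10.79 and 10.84 log2 CPM in control and at 10.92, 10.94, 10.95, 11.11 and 11.05 in APP/PS1 libraries, with differences of -0.05, -0.00117 and 0.00764 in pairs 1 to 3 and of 0.32 and 0.22 in pairs 4 and 5. The mean difference of Egr1 was 0.10 log2 units (SE 0.0711, limma adjusted p = 0.821), and 0.0441 without pair 4. Nr4a1 (chr15:101254269-101274795, plus strand) lay at 10.53, 10.49, 10.37, 10.22 and 10.37 log2 CPM in control and at 10.43, 10.48, 10.60, 10.74 and 10.60 in APP/PS1 libraries. The groups overlapped, and the mean difference of Nr4a1 was 0.17 log2 units (SE 0.0969, 95% interval -0.07 to 0.41, limma adjusted p = 0.77), or 0.0855 without pair 4.

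ATF3, a stress-induced repressor of the CREB family, and DUSP1, which removes phosphate from the MAP kinases, act in the shutdown of the response. Atf3 (chr1:191170296-191218039, minus strand) was at 10.60, 10.60, 10.53, 10.19 and 10.30 log2 CPM in control and at 10.37, 10.38, 10.46, 10.76 and 10.67 in APP/PS1 libraries. It was lower in APP/PS1 in pairs 1 to 3 and higher in pairs 4 and 5, and its mean difference of 0.08 log2 units (SE 0.141, limma adjusted p = 0.916) became -0.0382 without pair 4 and 0.0122 without pair 5. Dusp1 (chr17:26505590-26562128, minus strand) was at 10.96, 10.88, 10.80, 10.65 and 10.87 log2 CPM in control and at 10.80, 10.89, 10.98, 11.12 and 10.90 in APP/PS1 libraries. The pair 4 difference of Dusp1, 0.47, exceeded its others, and its mean difference was 0.10 log2 units (SE 0.0965, limma adjusted p = 0.849), which became 0.014 without pair 4.

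The members' differences varied from pair to pair. In pair 1, 2 of 9 members were higher in APP/PS1 (49.1% of all genes), with a median difference of -0.056. In pair 2, 4 of 9 were higher (50.3% of all genes), with a median of -0.001, and in pair 3, 8 of 9 (48.4%), with a median of 0.117. All 9 were higher in pair 4 (48.9% of all genes; median 0.512) and in pair 5 (47.8%; median 0.222). The labels place pairs 4 and 5 in 1 batch, the fourth, and pairs 1 to 3 in a batch each. Without that batch the median of the members was 0.009 log2 units, and within it 0.359. These 2 values come from alternatives chosen after the data were seen. In pair 4, 7 members lay above the 95th percentile of all genes (0.45), but 1, Fosb, lay above that of the 709 genes that averaged 8 log2 CPM or more (0.58), to which all members belong. The same percentile of the abundant genes was 0.33 in pair 3, with 1 member above it (Junb), and 0.36 in pair 5, with 2 above it (Fosb and Atf3), and it was 0.39 and 0.21 in pairs 1 and 2, with none above it. The medians of these 709 genes were 0.0788, -0.102, 0.0953, 0.111 and 0.0847 in pairs 1 to 5, so that the members' median of 0.117 in pair 3 lay close to that of other abundant genes.

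**Figure D3:**
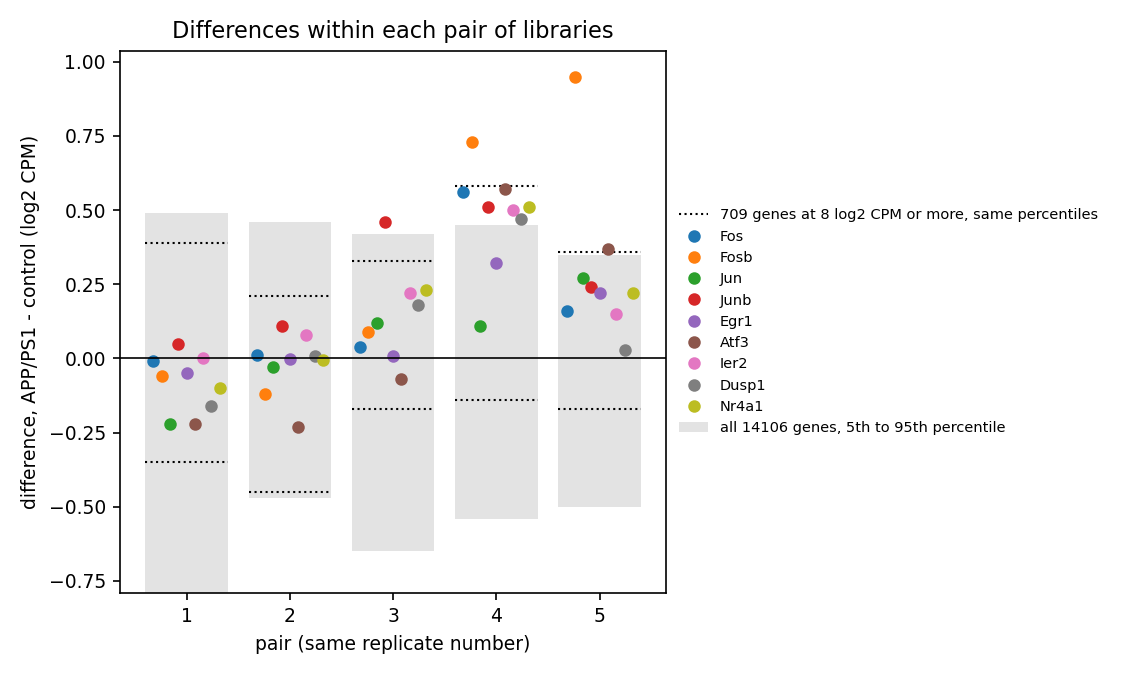
Difference in log2 CPM (APP/PS1 minus control) of each member in each of the 5 pairs of libraries. Grey bars span the 5th to 95th percentile of all 14106 genes and dotted lines that of the 709 genes at 8 log2 CPM or more. All 9 members are above 0 in pairs 4 and 5, led by Fosb at 0.73 and 0.95.

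The differences of each member correlated positively with the mean of the others, though Jun and Fosb were highest in pair 5 and the rest in pair 4. The Pearson correlation of a member's differences with the mean of the other 8 was between 0.704 (Jun) and 0.962 (Nr4a1), a description over 5 points that share libraries. The share of all genes with an r in this range was not counted. Outside the panel, the 8 genes most like the members' mean difference among 3176 genes that varied over the pairs by an SD of at least 0.2 and averaged 2 log2 CPM or more included Ing2 (r = 0.997), the anti-apoptotic Mcl1 (0.993), the ribosomal protein genes Rps14 (0.993), Rps15 (0.992) and Rplp0 (0.991), Tceal9 (0.991) and the processed pseudogene Gm4149 (0.991). In all, 57 of the 3176 had an r above 0.95. Mcl1 differed by -0.12, -0.09, 0.15, 0.52 and 0.25 in pairs 1 to 5, close to the members in size. Rps14 had the same shape at a lower level, from -0.60 in pair 1 to 0.25 in pair 4, with a mean difference of -0.19 log2 units.

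Other early response genes were read from a list of 40, of which 39 had values. None passed the adjusted p. In mean, 33 were higher (48.2% of all genes), with a median of 0.117 log2 units. In all 5 pairs, 4 were higher (2.99% of all genes). These 4 were the zinc finger factors Egr3 (0.23), Egr4 (0.19) and Klf4 (0.25) and the NR4A1 relative Nr4a2 (0.30). Egr4 averaged only 0.41 log2 CPM, and its libraries of pair 3 differed by 0.00126 log2 units. Nr4a2 read 7.28, 7.27, 7.15, 7.11 and 7.14 log2 CPM in control and 7.39, 7.41, 7.54, 7.58 and 7.55 in APP/PS1 libraries, so that the groups stood apart (limma adjusted p = 0.537). Klf4, a shear-responsive factor of endothelium, read 10.58, 10.57, 10.40, 10.46 and 10.42 in control and 10.63, 10.64, 10.82, 10.77 and 10.80 log2 CPM in APP/PS1 libraries (adjusted p = 0.566). The 2 most abundant of the list, Zfp36 (11.35 log2 CPM), which destabilises early response mRNAs, and Btg2 (10.70 log2 CPM), differed by 0.03 and 0.14 log2 units. The largest differences were those of Nr4a3 (0.47, adjusted p = 0.772), Ier5l (0.37, adjusted p = 0.673) and Myc (-0.31, adjusted p = 0.734). Nr4a3 differed by 0.46, -0.72, 0.51, 1.11 and 0.99 in pairs 1 to 5, a wider spread than any member.

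The partners with which AP-1 proteins pair were mostly higher in mean, in 12 of 13 genes (48.2% of all genes), with a median of 0.113 log2 units. Of these, Fosl1, Fosl2 and Maff are also on the early response list above. Only Atf7 (0.09) was higher in all 5 pairs, as 2.99% of all genes were. Fosl2, the most abundant at 9.74 log2 CPM, differed by 0.17, Atf4, the effector of the integrated stress response, by 0.15, Fosl1 by 0.24 and Maf by -0.30 log2 units, none with an adjusted p under 0.05 by limma. Of 25 genes upstream of the response (SRF, its partners, CREB factors and MAP kinases), 18 were higher in mean (48.2% of all genes). Their median was 0.038. Braf (0.11), a kinase at the head of the MAP kinase cascade, was among those higher in all 5 pairs. Mrtfb and Elk3, partners of SRF and the most abundant of these, differed by 0.03 and -0.01, and Elk4 by 0.11 log2 units. Srf itself differed by 0.14, with 0.33 in pair 4 and 0.36 in pair 5. By pair, the upstream median ran from -0.00236 to 0.09, and that of the members from -0.06 to 0.51.

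Of 19 feedback genes, 13 were higher in mean (48.2% of all genes), with a median of 0.06 log2 units. Zfp36, which is on this list, is also on the early response list. The largest differences were those of the MAP kinase phosphatases Dusp5 (0.25), Dusp4 (0.22) and Dusp7 (0.22), none with an adjusted p under 0.05 by limma. Dusp4 averaged only 0.58 log2 CPM, and its pair differences ran from -0.69 to 0.8. Dusp5 was lower in APP/PS1 in pair 2 (-0.47). Zfp36l1, at 9.16 log2 CPM, differed by 0.09. Spred1 (-0.08), an inhibitor of RAS signalling, was lower in all 5 pairs, as 5.0% of all genes were. Heat shock genes, which also respond to handling of cells, had a median of 0.012 log2 units. In mean, 12 of 14 were higher (48.2% of all genes). Hsp90ab1 (10.86 log2 CPM) differed by 0.11, the inducible Hspa1b (10.25 log2 CPM) by 0.01, and Hspa8 and Hspa5 by 0.18 and 0.17. Hspe1 (-0.15) was lower in all 5 pairs. By pair, the heat shock medians were 0.17, -0.29, -0.09, 0.31 and 0.25, positive in pairs 1, 4 and 5.

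**Figure D4:**
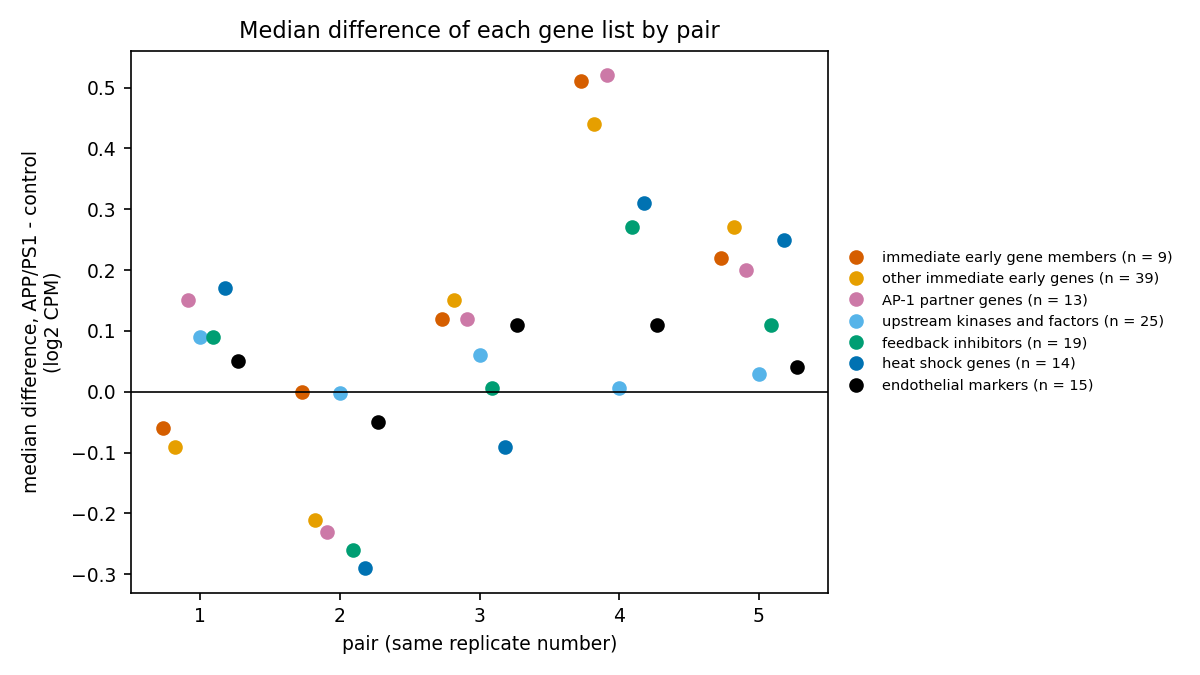
Median difference in log2 CPM (APP/PS1 minus control) of the members and of 6 other gene lists in each of the 5 pairs. The members, the other early response genes and the AP-1 partners reach 0.44 to 0.52 in pair 4, and the upstream genes stay between -0.00236 and 0.09.

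Markers of other cell types, listed from general knowledge, had differences of their own beside these results. At an unadjusted p under 0.05 in either direction, 8.03% of all genes were called, and with it 9 of 10 mural cell markers, 6 of 10 oligodendrocyte, 3 of 10 astrocyte, 3 of 6 neuronal, 1 of 15 endothelial, 0 of 11 microglial and 0 of 4 erythroid markers, none of which passed the adjusted p in limma. Mural markers were lower in mean in 10 of 10 genes (median -0.763 log2 units), with a sum of 568.3 to 949.2 CPM in control and 295.3 to 565.5 CPM in APP/PS1 libraries. Among them were Kcnj8 (-0.94) and Acta2 (-0.84). In pair 5, however, 6 of the 10 mural markers were higher in APP/PS1, with a median of 0.02. Most of the mural sum was Rgs5 (385 CPM, -0.76), whose groups overlapped. Oligodendrocyte markers had a median of -1.047 log2 units and sums of 51.9 to 290.5 against 38.7 to 149.0 CPM. They included Mobp (-2.70) and Mbp (-2.46), and Mag was at 0 in a library. Mobp and Mbp were not among those with an unadjusted p under 0.05 (0.199 and 0.21, limma). In pair 2 both were higher in APP/PS1, by 6.09 and 5.79 log2 units. Astrocyte markers summed to 180.4 to 220.3 CPM in control and 179.8 to 222.5 CPM in APP/PS1 libraries (median -0.957, with S100b at -1.65 and Aldoc at -1.59). Most of that sum was Gja1 (151 CPM, 0.27), the only astrocyte marker of the 10 that was higher in mean. Neuronal markers summed to 111.7 to 133.7 and 112.4 to 135.6 CPM (median -0.341, with Snap25 at -1.97 and Slc17a7 at -1.05), mostly from Stmn2 (101 CPM, 0.02). Gja1, Stmn2 and Rgs5 were named after their values were seen. Microglial markers summed to 59.0 to 72.5 and 55.4 to 68.4 CPM (median 0.014, with Ptprc at -0.58 and Tmem119 at -0.33), and the endothelial median was 0.036, with Vwf at -0.30 and Mfsd2a at 0.18.

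All 4 erythroid markers were lower in APP/PS1 in pairs 1 to 3 and higher in pairs 4 and 5. Their medians were -1.58, -3.33 and -3.98 log2 units in pairs 1 to 3 and 0.83 and 2.35 in pairs 4 and 5, with Hbb-bt at -1.20 and Hbb-bs at -1.19 in mean and sums of 29.3 to 240.9 CPM in control and 14.2 to 152.5 CPM in APP/PS1 libraries. Each of these sums was far below that of the members, and their part in the members' differences, and that of the mural and oligodendrocyte markers, was not tested.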

How the data were processed

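RNA was extracted from CD31+ CD45- cells of the cortex and sequenced on an Illumina instrument. By the study's methods and the submitters' processing notes, the authors used STAR for alignment to mm10 and HTSeq for gene counts, removed low genes by filterByExpr of edgeR, and corrected for batch with ComBat. The deposited values are log2 CPM, made by the authors with cpm of edgeR, and the 10 library files equal the series table. Each value was converted back with the prior count of 3 to an adjusted count, whole within 0.01 for 100.0% of values. The study's methods name the correction after the log CPM step; how that step gave whole adjusted counts is not given in the sources used here.

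Genes were named by GENCODE M21, for 14106 of 14106 identifiers. The members and lists were chosen with earlier results of these data known. Named genes were the members, the 2 most abundant genes and the 3 with the largest differences of each response list, the 2 with the largest differences of each marker list, and the 8 whose pair differences were most like those of the members. Some genes that the rule names are not reported here. Lists are described by counts and medians, with no test.

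Differences were fitted in limma 3.58.1 (R 4.3.3) on log2 CPM with genotype and replicate number, 4 residual degrees of freedom, and Benjamini-Hochberg adjustment over 14106 genes. Exact sign-flip tests used the 32 flips of 5 pairs. The labels name 4 batches, with replicates 4 and 5 of both groups in the fourth, and the study's plot of the libraries gives a batch to each number. Same-numbered libraries deviated from their group means in opposite directions (rank correlation -0.999 to -0.989 over 10873 genes), as the correction makes pair means equal, so the pairing rests on the batch. Alternatives were no block, the label batches, each pair left out, a variance trend, 2 other scalings, another prior count, a filter on low values and limma-voom on the adjusted counts. Leaving out label batch 4, or keeping it alone, was chosen after seeing the data. Promoter windows of 250 bases came from RefSeq. Adjusted counts per library ranged from 22371766 to 126686149.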

Additional observations from a re-analysis of the deposited data

Results flagged for a closer look

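Fos in control library 4 stood apart from the other control libraries, at 11.8 log2 CPM against 12.01 to 12.09. Its gap to the nearest other library was 0.723 of the range of the group, above Dixon's 95% critical value of 0.71 for 5 samples. It was the 1 value found in 18 groups of 5 libraries searched (9 members in 2 groups), and chance gives about 1 in 20 groups. The partner library APP/PS1 4 had the highest Fos value of its group, as the batch adjustment makes paired libraries mirror each other.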

How the results depend on the processing

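The number of members called at an adjusted p under 0.05 was 0 with the replicate block and 1 (Junb) without it. The fit without the block understates the error, as adjusted libraries of the same number are not independent. The number called was 0 without replicates 1 to 5 in turn (0 to 0), with the 4 label batches as the block and under every other alternative. The number of members higher in all pairs was 2, and between 2 and 4 when 1 pair was left out, the 4 being reached without pair 1. It was 1 with total-count scaling, where the median over all genes moved to -0.0409, and 9 within label batch 4 alone, which holds only pairs 4 and 5. With fewer pairs more genes share a direction in all of them, and the share of all genes was not computed for these counts. The median difference of the members, 0.151, ranged from 0.048 without replicate 4 to 0.192 without replicate 1, was 0.114 with total-count scaling and 0.132 with limma-voom, and was 0.009 without label batch 4 and 0.359 in that batch alone.

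Some members changed direction. With 1 pair left out, Atf3 ranged from -0.0382 (without replicate 4) to 0.16 and Jun from -0.00488 (without replicate 5) to 0.12 log2 units. Without label batch 4, Fosb was -0.0274, Jun -0.0427, Egr1 -0.0143 and Atf3 -0.17 log2 units. Without pair 4, the differences of Fos (0.0484), Egr1 (0.0441), Ier2 (0.11), Dusp1 (0.014) and Nr4a1 (0.0855) kept their direction at a smaller size, as did that of Fosb without pair 5 (0.16). The cause was not tested. Apart from Junb without the block, no alternative brought a member past the threshold. Over all genes the block decided the number of calls, 0 with it and 648 without it. As the fit without the block understates the error, neither the 648 calls nor that of Junb stand as an equal alternative. One gene was called with the 4 label batches, 5 were without replicate 2 and 1 without replicate 5.

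The lowest adjusted count of a member was 12164. The exact test over 5 pairs cannot go below 0.062. The batch adjustment was made before deposit, and values without it were not analysed here.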
